A study of Mus musculus with 4 samples.

Results

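The genes described here are 42 genes of DNA replication and S phase, the part of the cell cycle in which the genome is copied, in the synovium of mice with and without serum transfer arthritis. They were taken as a named list: origin and helicase proteins, polymerases, the sliding clamp and its loader, enzymes that make deoxynucleotides, chromatin assembly factors and regulators of entry into S phase. Of the 42, 40 were measured among 22180 genes, each through its probe set with the highest mean. The other 2, Rfc4 and Ccne2, were not analysed here because their probe sets carry several gene symbols.

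Copying starts at origins, which the origin recognition complex marks and on which Cdc6 and Cdt1 load the ring of MCM proteins, a step called licensing. Cdc45 and the GINS complex then turn the ring into a working helicase, polymerase alpha-primase starts each strand, and polymerases epsilon and delta extend it. Many of these genes are known targets of E2F transcription factors, which the retinoblastoma family of pocket proteins holds back until cyclin-dependent kinases phosphorylate it. Inflamed synovium is known for thickening, through cells that enter from blood and through growth of cells in place.

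RNA came from synovium of the tibiotalar region, at the ankle, of C57BL/6J males that were 12 weeks old. Arthritic mice received 150 microlitres of arthritogenic serum into the peritoneum on days 0, 2 and 7 and were sampled on day 10, the labelled peak of inflammation, and nonarthritic mice received phosphate buffered saline at the same times. Each of the 4 arrays holds 1 pool, with 3 mice in either of the 2 nonarthritic pools and 10 mice in either of the 2 arthritic pools. K/BxN serum is named on the labels of nonarthritic and arthritic pools alike, and nonarthritic pools are marked day 0, so the serum label conflicts with the saline treatment and the day on which nonarthritic tissue was taken is not clear. Labelled day and pool size differ between the groups together with treatment, and their parts cannot be told apart. Pools of mice were the replicates, so all p-values measure the spread between pools, and the number of arrays limits the precision.

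The synovial fibroblast genes Prg4 (lubricin), Cdh11 and Pdpn were among the bright genes on all 4 arrays, with lowest signals of 13.27, 10.50 and 10.36 on the log2 scale. Marker genes of neighbouring tissue moved strongly between the groups. All 8 skeletal muscle markers fell, with a median log2 fold change of -2.78, as did all 7 adipocyte markers, with a median of -2.55, while all 8 neutrophil markers rose, with a median of 3.09. In whole tissue, fewer cells of a type and less RNA per cell cannot be told apart, and this holds for every value below.

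DNA replication genes were higher in arthritic synovium almost throughout. Of the 40 measured, 29 rose and 0 fell (limma adjusted p under 0.05), where 8.72% of all genes rose and 6.62% fell. At an unadjusted p under 0.05, 35 were higher and 0 lower. The median log2 fold change, arthritic minus nonarthritic, was 0.82, against 0.01 over all genes, and the values ran from -0.13 for Pola1 to 1.67 for Mcm5. In 37 of the 40 both arthritic pools lay above both nonarthritic pools, an order that 30.2% of all genes showed, and in 0 both lay below, as in 26.1% of all genes. Of the 29, 13 rose at least 2-fold, as 3.45% of all genes did.

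The number that passed depends on the arrays. When nonarthritic pool 1 or 2 was omitted, 10 and 1 of the 40 rose, and when arthritic pool 1 or 2 was omitted, 1 and 0 rose (30 at an unadjusted p under 0.05 in the last case), beside 2.87%, 0.649%, 1.05% and 0.212% of all genes in the same order. The single genes were Mcm5 without nonarthritic pool 2 and Mcm2 without arthritic pool 1. In these fits 38 or 39 of the 40 fold changes were above 0, and their median lay between 0.77 and 0.93. When all 41345 probe sets were fitted together, 9 rose: Cdc6, Cdt1, Mcm2, Mcm3, Mcm5, Pole, Rrm2, Tk1 and Uhrf1.

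**Figure D1:**
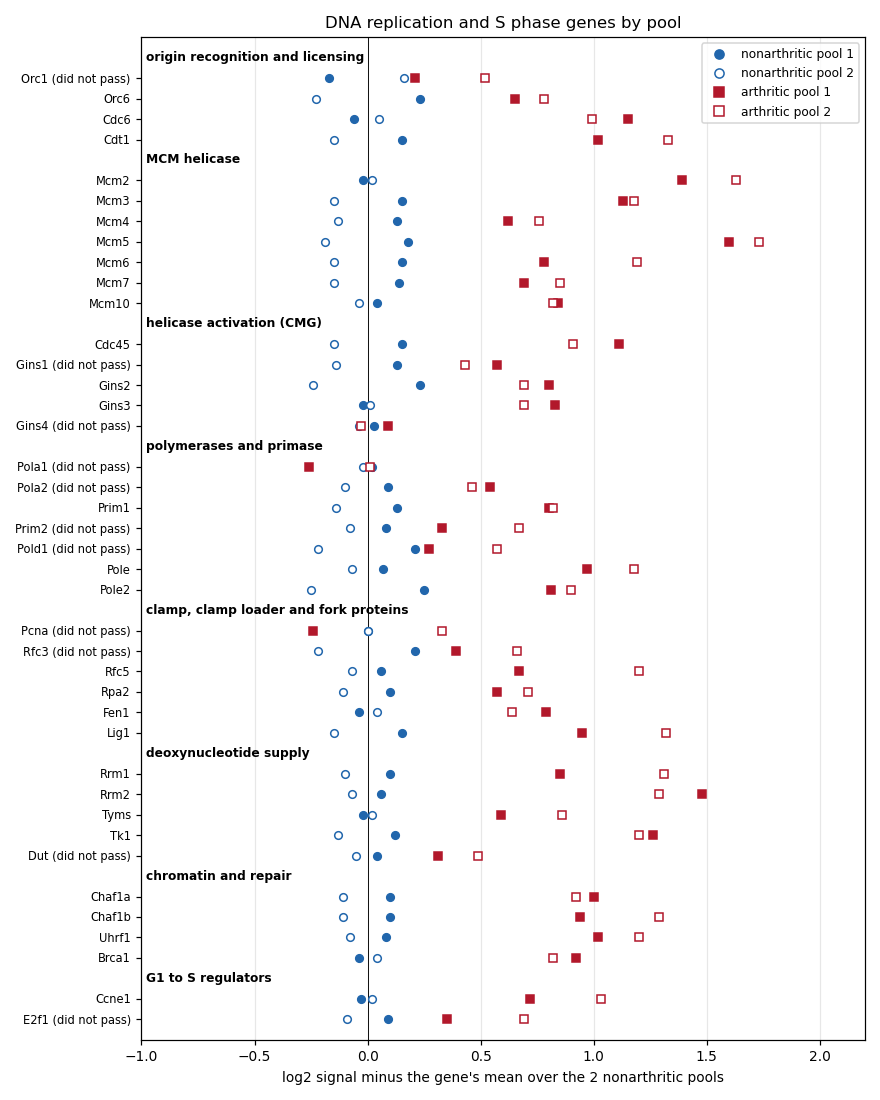
Signal of each of the 40 measured genes in each pool on the log2 scale, as the difference from the gene's mean over both nonarthritic pools (x axis), grouped by role. Circles are nonarthritic and squares arthritic pools, filled for pool 1 and open for pool 2, and in 37 genes both squares lie to the right of both circles.

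Of the MCM genes in the list, 7 of 7 rose. Mcm2 to Mcm7 encode the 6 subunits of the helicase ring and Mcm10 a factor that helps to start it. Mcm8 and Mcm9, outside the list, did not pass (log2 fold changes of 0.58 and -0.14, limma adjusted p = 0.0665 and 0.639). Mcm5 read 8.58 and 8.21 in nonarthritic pools 1 and 2 and 10.00 and 10.13 in arthritic pools 1 and 2. Both arthritic pools stood well above the nonarthritic pair, and the change was 3.18-fold (log2 fold change 1.67 ± 0.18 SE, adjusted p = 0.000945). Mcm2 read 7.97 and 8.01 against 9.38 and 9.62, a rise of 1.51 ± 0.16 (adjusted p = 0.00095). Within each group the pools of Mcm2 lay closer together than the groups did.

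The remaining ring subunits rose with smaller fold changes. Mcm3 rose by 1.16 ± 0.17 on the log2 scale, Mcm6 by 0.99 ± 0.20, Mcm7 by 0.78 ± 0.17 and Mcm4 by 0.69 ± 0.17. Mcm6 read 8.97 and 8.67 in the nonarthritic and 9.60 and 10.01 in the arthritic pools. Mcm10, at 7.16 and 7.08 against 7.96 and 7.94, had pools that nearly coincided within each group and rose by 0.83 ± 0.15. Except for Mcm10, each MCM gene was higher in arthritic pool 2 than in arthritic pool 1.

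Licensing factors rose around the helicase. Cdt1, which brings the MCM ring to origins, read 8.17 and 7.87 against 9.04 and 9.35 and rose 2.26-fold (1.18 ± 0.19, adjusted p = 0.00514). Cdc6, which acts with it at the origin, read 6.47 and 6.58 against 7.68 and 7.52 and rose (1.08 ± 0.16, adjusted p = 0.0038), from nonarthritic signals at background level. In both genes the groups were clearly apart. Orc6, a subunit of the origin recognition complex, read 8.75 and 8.29 against 9.17 and 9.30 and rose by 0.72 ± 0.19 (adjusted p = 0.0431), a call that ended when the arrays were quantile normalized again (adjusted p = 0.0517). Orc1, the subunit that comes and goes with the cell cycle, read 5.75 and 6.08 against 6.13 and 6.44 and did not pass (0.37 ± 0.19, adjusted p = 0.246).

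Low signals limit 4 of the 40 genes. In Orc1, Cdc6, Gins1 and Brca1 both nonarthritic pools read at or below 6.98, the 95th percentile of the mean signals of 1105 olfactory receptor genes, a family used mainly in the nose and taken here as a measure of background. In Orc1 and Gins1 both arthritic pools did too. Such a signal cannot be told from background, so the fold changes of these genes may understate the difference. Cdc6 and Brca1, which repairs broken and stalled forks, passed the test, and their arthritic pools lay above that bound.

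Helicase activation genes rose in 3 of 5 cases, and differences between the GINS subunits were not tested. Cdc45, which joins the ring to form the working helicase, read 7.24 and 6.94 against 8.20 and 8.0 and rose by 1.01 ± 0.18 (adjusted p = 0.00796). Of the 4 GINS subunits, Gins3 rose by 0.77 ± 0.16 and Gins2 by 0.75 ± 0.19. Gins1 (0.51 ± 0.17, adjusted p = 0.0887) did not pass, although its arthritic pools, at 6.21 and 6.07, lay above the nonarthritic ones, at 5.77 and 5.50. Gins4 read 10.22 and 10.15 against 10.28 and 10.16, so that the groups overlapped. Its log2 fold change was 0.04, with a 95% confidence interval from -0.33 to 0.40. All 5 genes of this step were higher in arthritic pool 1 than in pool 2, the opposite order to most MCM genes.

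Of the polymerase and primase genes 3 of 7 rose. Pole, the catalytic subunit of the leading-strand polymerase epsilon, read 7.69 and 7.55 against 8.59 and 8.80 and rose 2.11-fold (1.08 ± 0.17, adjusted p = 0.00439). A second, dimmer probe set of Pole did not follow it, with a log2 fold change of -0.05 ± 0.20, and the average of both did not pass (adjusted p = 0.0838). Pole2, its second subunit, rose by 0.86 ± 0.20 and the primase subunit Prim1, which makes the RNA primers, by 0.82 ± 0.17. Pola2 (0.51), Prim2 (0.50) and Pold1 (0.43), the catalytic subunit of polymerase delta, did not pass. Pola2 passed when dim genes were left out (adjusted p = 0.0444). Pola1, the catalytic subunit of polymerase alpha, was the only one of the 40 with a negative value: it read 8.5 and 8.46 against 8.22 and 8.49, with a log2 fold change of -0.13 and a 95% confidence interval from -0.51 to 0.26. Without arthritic pool 1 that value was 0.01.

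Among clamp and fork genes 4 of 6 rose. Lig1, the ligase that joins the fragments of the lagging strand, read 7.82 and 7.52 against 8.62 and 8.99 and rose 2.2-fold (1.14 ± 0.19, adjusted p = 0.00698). Fen1, the nuclease that trims those fragments, rose by 0.72 ± 0.16, but its other probe set gave 0.21 ± 0.20 and the average of both did not pass (adjusted p = 0.108). The clamp loader subunit Rfc5 rose by 0.94 ± 0.20 and Rpa2, part of the cover of single-stranded DNA, by 0.65 ± 0.17, and Rfc3 did not pass (0.53 ± 0.20, adjusted p = 0.118).

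Pcna, the sliding clamp and a widely used proliferation marker, stood apart from these. It read 11.24 in both nonarthritic pools and 11.00 and 11.57 in arthritic pools 1 and 2. The arthritic pools thus lay on opposite sides of the nonarthritic value, with the widest gap between arthritic pools of any of the 40 genes, 0.57. The log2 fold change was 0.05, with a 95% confidence interval from -0.44 to 0.53. It was -0.24 without arthritic pool 2 and 0.33 without arthritic pool 1. After quantile normalization again it was -0.05, and with arrays centred 0.14. The interval overlaps that of Rpa2, from 0.26 to 1.03, the gene with the smallest log2 fold change (0.65) among the 29 that rose. Differences between Pcna and the other genes were not tested.

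Enzymes that supply deoxynucleotides rose in 4 of 5 cases. Rrm2, the regulatory subunit of ribonucleotide reductase, read 7.69 and 7.56 against 9.11 and 8.92 and rose 2.62-fold (1.39 ± 0.16, adjusted p = 0.00133). Its second probe set, at 4.51 and 4.34 against 4.21 and 4.53, lay near the olfactory receptor medians of 4.60 to 5.15, and the average of both rose by 0.67 (adjusted p = 0.0259). The larger subunit Rrm1 read 9.78 and 9.58 against 10.53 and 10.99 and rose 2.11-fold. Both subunits were well above their nonarthritic signal in each arthritic pool. Tk1, the thymidine kinase of dividing cells, rose 2.35-fold (1.24 ± 0.17, adjusted p = 0.00242) and the thymidylate synthase Tyms 1.65-fold. Dut, which removes dUTP, read 8.87 and 8.78 against 9.14 and 9.32 and did not pass (0.41 ± 0.16, adjusted p = 0.137).

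Chromatin and repair genes rose in 4 of 4 cases. Chaf1a and Chaf1b, which place histones on new DNA as part of CAF-1, rose by 0.97 ± 0.16 and 1.12 ± 0.18. Uhrf1, which brings the maintenance DNA methyltransferase to copied DNA, read 7.37 and 7.21 against 8.31 and 8.49 and rose by 1.11 ± 0.16 (adjusted p = 0.00367). Brca1 read 6.19 and 6.27 against 7.15 and 7.05 and rose by 0.87 ± 0.16. Of the regulators, cyclin E1, Ccne1, which drives cells into S phase, read 7.36 and 7.41 against 8.11 and 8.42 and rose by 0.88 ± 0.17 (adjusted p = 0.0124). E2f1, at 8.36 and 8.18 against 8.62 and 8.96, was higher in both arthritic pools but did not pass (0.52 ± 0.18, adjusted p = 0.096).

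The pools of each group differed in a shared direction. In the nonarthritic pair 31 of the 40 genes (77.5%) were higher in pool 1, against 53.9% of all genes, with a median difference, pool 1 minus pool 2, of 0.20 against 0.03. In the arthritic pair 27 of the 40 (67.5%) were higher in pool 2, against 49.7% of all genes, with a median of -0.15 for pool 1 minus pool 2. The largest gaps were 0.50 between the nonarthritic pools (Pole2) and 0.57 between the arthritic pools (Pcna). Of the neutrophil markers 6 of 8 were higher in nonarthritic pool 1 and 7 of 8 in arthritic pool 2, and of the macrophage markers 9 of 9 and 7 of 9. Mitotic markers, described below, had this order in 9 of 11 and 10 of 11 cases, and the 108 other replication genes described below in 88 and 56. The skeletal muscle markers had the opposite order in both pairs, 8 of 8 higher in nonarthritic pool 2 and 8 of 8 higher in arthritic pool 1. Further lists were mixed. Of 11 synovial fibroblast markers 10 were higher in nonarthritic pool 1 and 5 in arthritic pool 2. These counts were 7 and 1 of 9 chondrocyte, 5 and 0 of 7 endothelial and 4 and 2 of 7 adipocyte markers. The part of these cell types in the replication genes was not tested.

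Subunits of 1 complex often had unequal changes when the remaining subunits, from lists of 116 other replication and S phase genes of which 108 were measured, were set beside the 40. The subunits named in this and the next paragraph were chosen after their values were seen. In the origin recognition complex Orc6 rose, while Orc2 (-0.37), Orc3 (-0.06), Orc4 (-0.46) and Orc5 (-0.17) did not pass. Polymerase epsilon had its large subunits Pole and Pole2 rising and its histone-fold subunits Pole3 and Pole4 at 0.04 ± 0.16 and 0.02 ± 0.16. In polymerase delta only the small subunit Pold4 rose (0.82 ± 0.21, adjusted p = 0.0329), and Pold2 and Pold3 were at 0.04 and 0.23.

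Unequal values were also seen in the clamp loader. Rfc2 read 7.78 and 7.27 against 9.18 and 8.90 and rose by 1.52 ± 0.21 (adjusted p = 0.00285), whereas its large subunit Rfc1 was at -0.07 ± 0.21. In RPA, Rpa2 rose and Rpa1 and Rpa3 were at 0.09 and 0.05. Rbbp4, the histone-binding subunit that CAF-1 shares with other complexes, was at 0.23. Its other probe set gave -0.75, but read below 6.98, the bound taken as background, on all 4 arrays. Rrm2b, the reductase subunit that serves resting cells and DNA repair, was at -0.47 ± 0.23 (adjusted p = 0.225), beside the rise of Rrm2. Differences between subunits were not tested. The near-zero values changed sign under some settings: Orc3 and Rfc1 when arrays were centred, and Pold2, Pole3, Rpa3 and Gins4 after quantile normalization again.

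**Figure D2:**
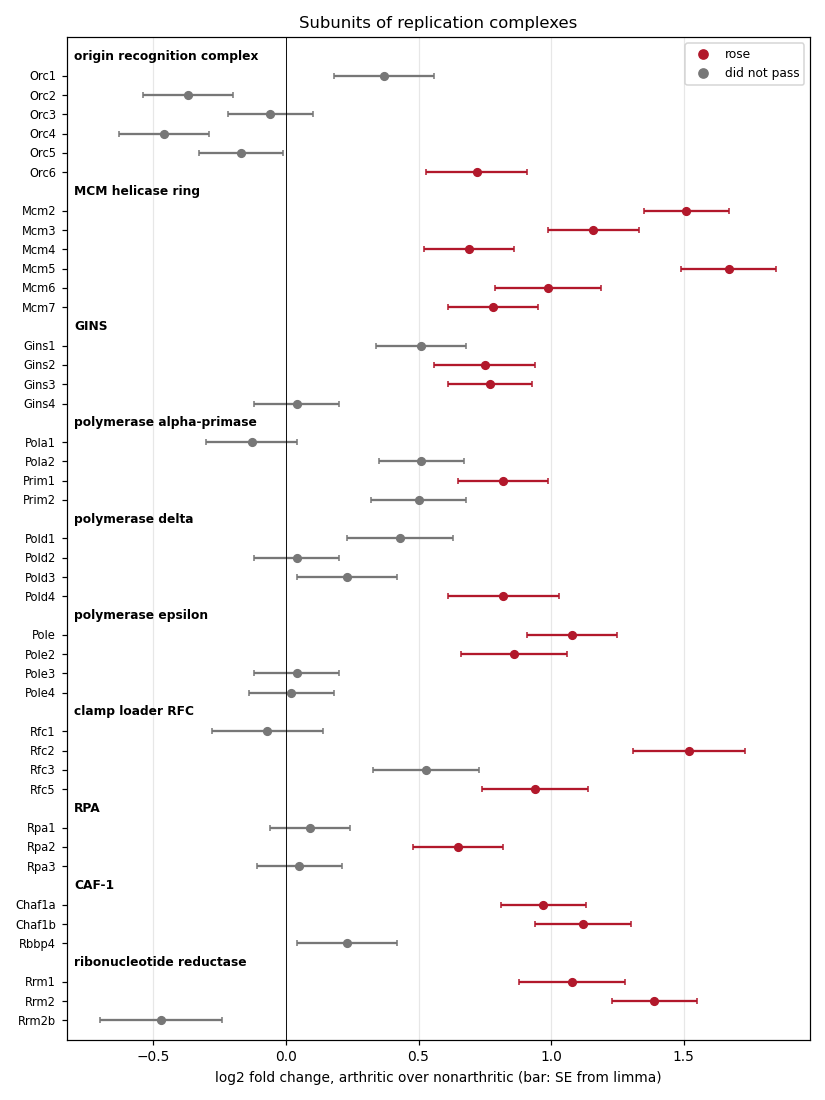
Log2 fold change, arthritic over nonarthritic, with the SE from limma, for the measured subunits of 10 replication complexes, including subunits outside the list of 42. All 6 MCM ring subunits rose, while in each of the other complexes at least 1 subunit did not pass.

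Of the 108 other replication genes measured, 39 rose, with a median log2 fold change of 0.35 over the list, and 7 fell, a share close to the 6.62% of all genes that fell. In 17 of the 108 both nonarthritic pools read at or below 6.98, and 11 of these rose, so that their fold changes may understate the difference. Among those named below they are Ticrr, Hells, Mms22l, Exo1, Rad54l, Fanci and Chek1, which rose, and Recql4 and Clspn, which did not pass. Without each pool, in the order above, there were 10, 1, 4 and 0 rising genes, and 0 falling genes each time. Of 15 licensing and helicase genes 4 rose: Ticrr, which loads Cdc45 (1.48 ± 0.21), Dbf4 (0.95) and Cdc7 (0.68), the kinase pair that fires origins, and Donson (0.71). Mcm8 (0.58) and Recql4 (0.45) did not pass. Of 19 fork and polymerase genes 6 rose, among them Rfc2, the fork protector Timeless (0.90) and the nuclease and helicase Dna2 (0.86), and 0 fell. Clspn (0.47), Rnaseh2a (0.47) and Timeless's partner Tipin (-0.36) did not pass.

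Nucleotide and folate genes rose in 9 of 17 cases and fell in 0. Dctd, which makes dUMP for thymidylate synthesis, read 7.71 and 7.39 against 9.37 and 9.15 and rose 3.27-fold (1.71 ± 0.18, adjusted p = 0.000856). Cad (1.49 ± 0.20) and Umps (0.80 ± 0.17), enzymes of pyrimidine synthesis, and Ctps, which makes CTP (1.48 ± 0.17), rose too. Shmt2 (0.40) and Mthfd2 (0.40), enzymes of the mitochondrial folate cycle, did not pass.

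Chromatin and repair partners included 3 genes that fell. Of 12 chromatin genes 5 rose and 2 fell: the histone chaperone Asf1b rose by 1.27 ± 0.20, while its paralog Asf1a fell by 0.70, and Dek, a chromatin protein, fell by 0.96. The remodeller Hells (1.13), Mms22l (1.0) and the maintenance methyltransferase Dnmt1 (0.98) rose. Slbp, which binds histone messenger RNA, was at 0.29 and did not pass. Of 15 recombination, mismatch repair and checkpoint genes 8 rose, led by the nuclease Exo1 (1.38), Rad54l (1.27), Fanci (1.14) and the checkpoint kinase Chek1 (1.02). Usp1, a deubiquitinase that acts on Pcna and Fancd2, fell by 0.88, and Msh6 (0.37) and Brca2 (0.23) did not pass.

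Regulators of S phase entry followed several patterns. Of 23 E2F, pocket protein, cyclin and CDK genes 7 rose and 3 fell. Ccna2, the cyclin of S phase and G2, read 9.14 and 8.55 against 10.94 and 11.10 and rose 4.52-fold (2.18 ± 0.22, adjusted p = 0.000669). E2f8 (1.3), E2f3 (1.20) and Skp2, which marks CDK inhibitors for degradation (1.22), rose, while E2f2 (0.62), E2f4 (0.53) and Cdk2 (0.57, adjusted p = 0.0533) did not pass. E2f2 and Cdk2 passed when dim genes were left out (adjusted p = 0.0375 and 0.0296) or arrays were centred, and Cdk2 also after quantile normalization again. E2f7 (0.82), the E2F partner Tfdp1 (0.76) and Cdk4 (1.02) also rose, and are named after their values were seen, as are those that follow. Of genes that relay growth signals, Ccnd1 was at -0.18, Ccnd2 at -0.50, Ccnd3 at 0.44 and Myc at 0.16, none of which passed.

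The 3 that fell were Rb1, E2f6 and Tfdp2. Rb1, the retinoblastoma protein that restrains E2F, read 10.92 and 10.90 in the nonarthritic pools and 9.96 and 9.95 in the arthritic pools. The pools of each group nearly coincided, and the log2 fold change was -0.96 ± 0.15 (adjusted p = 0.00526). The second probe set of Rb1 gave -0.96 ± 0.23, but read 6.35 and 6.09 against 4.94 and 5.58. These signals all lay below 6.98, the bound taken as background. E2f6, a repressor of the family, was at -0.88 and the E2F partner Tfdp2 at -0.71, whereas E2f7 and E2f8, which also repress E2F targets, rose. Of 7 CDK inhibitors 0 rose and 1 fell: Cdkn1a, which encodes p21, read 11.90 and 11.98 against 11.32 and 10.74 (-0.91 ± 0.21, adjusted p = 0.0246). The other 6 did not pass, among them Cdkn2b (0.66), Cdkn1c (0.62) and Cdkn1b (-0.38), and 5 of the 7 had positive values.

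**Figure D3:**
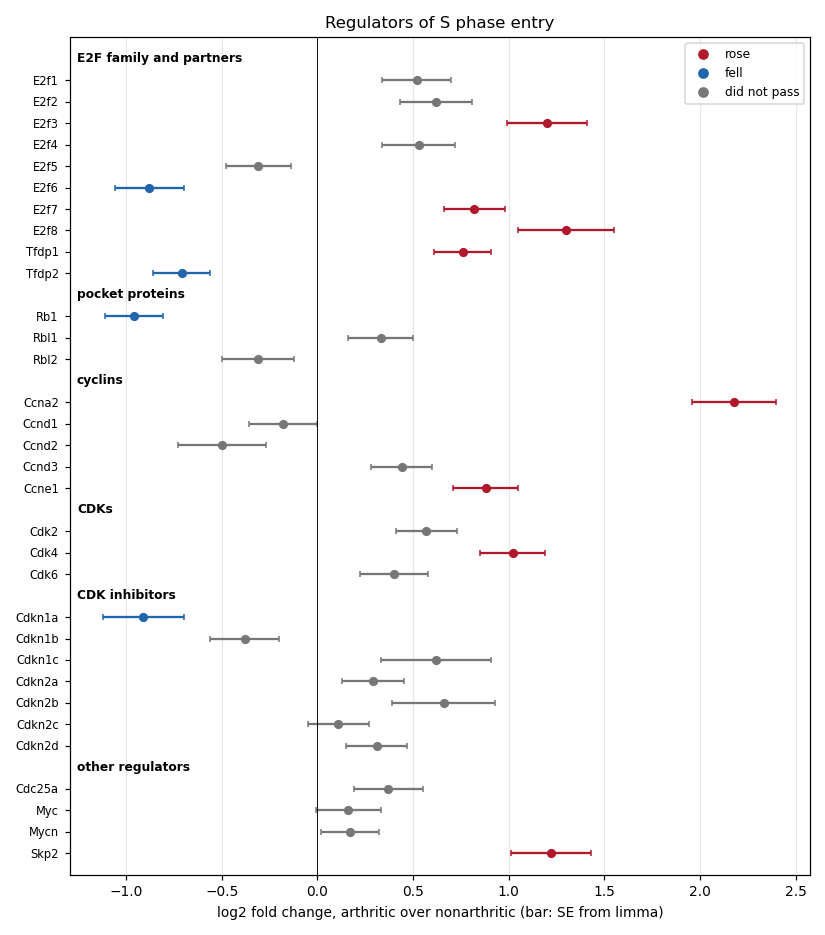
Log2 fold change, arthritic over nonarthritic, with the SE from limma, for the measured regulators of S phase entry, grouped by kind. Ccna2 lies furthest to the right at 2.18, and the genes that fell are Rb1, E2f6, Tfdp2 and Cdkn1a.

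Genes of the list of mitotic markers had larger fold changes. Of 11, all rose at least 2-fold, with a median of 1.78 and a range from 1.33 to 2.51, beside the median of 0.82 for the 40 replication genes. Cdk1 read 8.55 and 7.83 against 10.32 and 11.08 (2.51 ± 0.30), Plk1 had 2.37 ± 0.20 and Top2a 2.07 ± 0.24. Mki67, named after its value was seen, had 1.65 ± 0.20. The largest value of the 40, that of Mcm5, lay below the mitotic median. The difference between the lists was not tested.

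**Figure D4:**
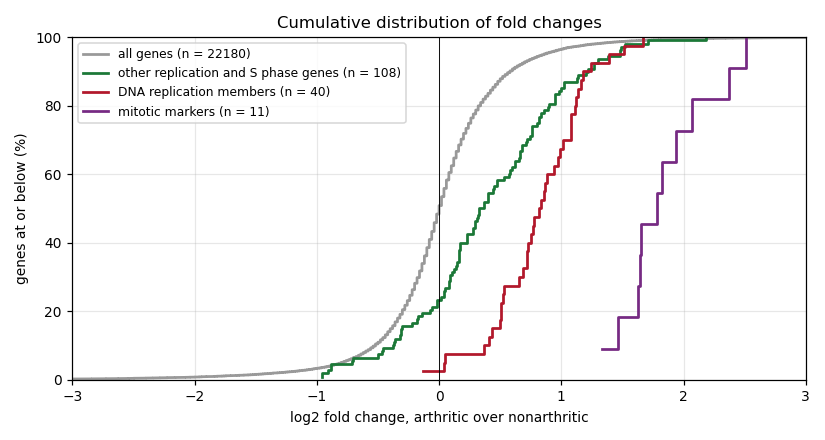
Share of genes (y axis, percent) with a log2 fold change at or below the value on the x axis, for all 22180 genes, the 108 other replication and S phase genes, the 40 replication genes and the 11 mitotic markers. The curve of the 40 genes lies to the right of that of all genes, with medians of 0.82 and 0.01.

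Markers of marrow precursors, cells that divide rapidly, were read as well, and many lay at background level. Both groups read at or below 6.98 in 5 of 9 myeloid progenitor, 2 of 8 red cell precursor and 5 of 8 B cell precursor genes, among them Mpo, Elane, Ctsg, Vpreb1, Igll1, Rag2 and Dntt. Of the 9 myeloid progenitor genes 0 rose and 0 fell in limma, also at an unadjusted p under 0.05 except for Cd34 (-0.54, unadjusted p = 0.0105), which vessels also express. The mean log2 signal of the 9 genes was 7.56 and 7.70 in the nonarthritic and 7.49 and 7.62 in the arthritic pools. Cd34, at 12.98 and 12.96 against 12.54 and 12.32, was far brighter than the other myeloid progenitor genes and raises these means. Of 8 red cell precursor genes 0 rose and 2 fell, Sptb (-0.92) and Car1 (-0.66), with means of 7.17 and 7.33 against 6.90 and 6.93. Of 8 B cell precursor genes 0 rose and 2 fell, Cd79a (-1.18) and Ebf1 (-0.65), with means of 6.87 and 7.05 against 6.68 and 6.80. Ebf1, at 11.78 and 11.70 against 11.20 and 10.99, was far brighter than the rest of the list and raises these means. The part of marrow cells in the replication genes was not tested.

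Markers of cells of the inflamed joint moved in several directions. Of 9 macrophage markers 5 rose and 0 fell, led by Fcgr1 (1.60) and Cd14 (0.85), with mean signals of 10.77 and 10.56 against 11.16 and 11.28. Of 11 synovial fibroblast markers 5 rose, among them Cdh11 (1.70), and 3 fell, among them Clic5 (-2.48) and Htra4 (-1.89). Of 9 chondrocyte markers 5 rose, led by Matn3 (2.31) and Acan (2.03), and of 7 endothelial markers 1 rose, Kdr (0.73). The other 6 endothelial markers did not pass, among them Tek (-0.71, limma adjusted p = 0.0661) and Cdh5 (0.40), and 4 of the 7 had negative values. The T and NK cell genes Gzmb (2.17) and Cd4 (1.74) rose, 2 of 6. Matn3 and Gzmb read at or below 6.98 in both nonarthritic pools. The part of each cell type in the replication genes was not tested.

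Promoters of the MCM and related genes were searched for the short sequences that E2F factors are known to bind. The 4 words TTTCCCGC, TTTCGCGC, TTTGCCGC and TTTGGCGC, called E2F words here, were searched on both strands, and overlapping matches were kept, in RefSeq promoters of assembly GRCm38.p6 from 250 bases before to 50 after each start. The table held 35 of the 42 genes. The 200 bases that lie before the outermost RefSeq start of 6 genes are shown 5′ to 3′ on the gene's strand, with E2F words of either strand in capitals: Mcm5, Mcm6 and Gins3, which rose and hold a word, Rfc3, which holds one here and another just after its start and did not pass, and Mcm2 and Rrm2, which rose and hold none. For Mcm5 the outermost start lies upstream of the start used in the promoter table, so its word is nearer the end of the printed bases than its place in the plot of motif positions.
Mcm5 (chr8:75109268-75109467, plus strand): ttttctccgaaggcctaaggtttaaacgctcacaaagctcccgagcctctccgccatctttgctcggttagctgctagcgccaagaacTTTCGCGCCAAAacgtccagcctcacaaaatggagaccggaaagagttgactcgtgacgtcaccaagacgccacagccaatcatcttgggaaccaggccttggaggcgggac
Mcm6 (chr1:128359706-128359905, minus strand): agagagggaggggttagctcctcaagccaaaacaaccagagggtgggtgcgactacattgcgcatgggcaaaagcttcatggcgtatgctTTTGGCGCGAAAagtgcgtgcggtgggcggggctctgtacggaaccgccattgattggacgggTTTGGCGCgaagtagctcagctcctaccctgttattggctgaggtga
Gins3 (chr8:95633359-95633558, plus strand): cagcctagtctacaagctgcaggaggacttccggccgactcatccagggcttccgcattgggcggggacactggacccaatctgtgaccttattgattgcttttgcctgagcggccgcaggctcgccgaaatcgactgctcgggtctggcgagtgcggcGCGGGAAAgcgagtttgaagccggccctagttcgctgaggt
Rfc3 (chr5:151651209-151651408, minus strand): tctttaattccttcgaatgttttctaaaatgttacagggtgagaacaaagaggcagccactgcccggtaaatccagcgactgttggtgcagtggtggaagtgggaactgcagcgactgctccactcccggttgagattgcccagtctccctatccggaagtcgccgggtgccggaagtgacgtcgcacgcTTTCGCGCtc
Mcm2 (chr6:88898781-88898980, minus strand): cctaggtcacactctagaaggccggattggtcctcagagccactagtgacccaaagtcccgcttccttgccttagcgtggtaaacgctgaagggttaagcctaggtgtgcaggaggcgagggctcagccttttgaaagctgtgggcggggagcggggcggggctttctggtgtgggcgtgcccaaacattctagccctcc
Rrm2 (chr12:24708054-24708253, plus strand): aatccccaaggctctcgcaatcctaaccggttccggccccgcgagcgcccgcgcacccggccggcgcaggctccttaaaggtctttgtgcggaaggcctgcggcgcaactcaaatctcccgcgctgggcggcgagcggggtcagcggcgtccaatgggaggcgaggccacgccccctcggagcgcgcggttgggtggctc

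In Mcm5 and Mcm6 a pair of words on opposite strands overlapped, and Mcm6 held a further word nearer the start. Of the 35 genes 14 held at least 1 E2F word (40%), against 2.6% of the 27025 genes of the table and 2.26% of its 32851 windows. The 14 were Orc1, Cdc6, Cdt1, Mcm3, Mcm5, Mcm6, Mcm7, Gins3, Pola1, Pold1, Pole2, Rfc3, Lig1 and Uhrf1. The word is rich in C and G, and base composition was not matched in this comparison. CCAAT boxes, searched as CCAAT on both strands, were in 20 of the 35 (57.1%), against 41.1% of all genes of the table. The other replication genes held an E2F word in 23 of 93 cases (24.7%), and mitotic markers in 1 of 10.

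Genes with and without a word had overlapping ranges of change, which were not tested against each other. The 14 genes with an E2F word had a median log2 fold change of 0.93 and 10 of them rose, and the 20 measured genes without one had a median of 0.85 and 16 rose. Mcm5 and Rrm2, with log2 fold changes of 1.67 and 1.39, were thus alike in rising and unlike in their promoter letters. A match describes letters only, and its absence says nothing about a factor.

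**Figure D5:**
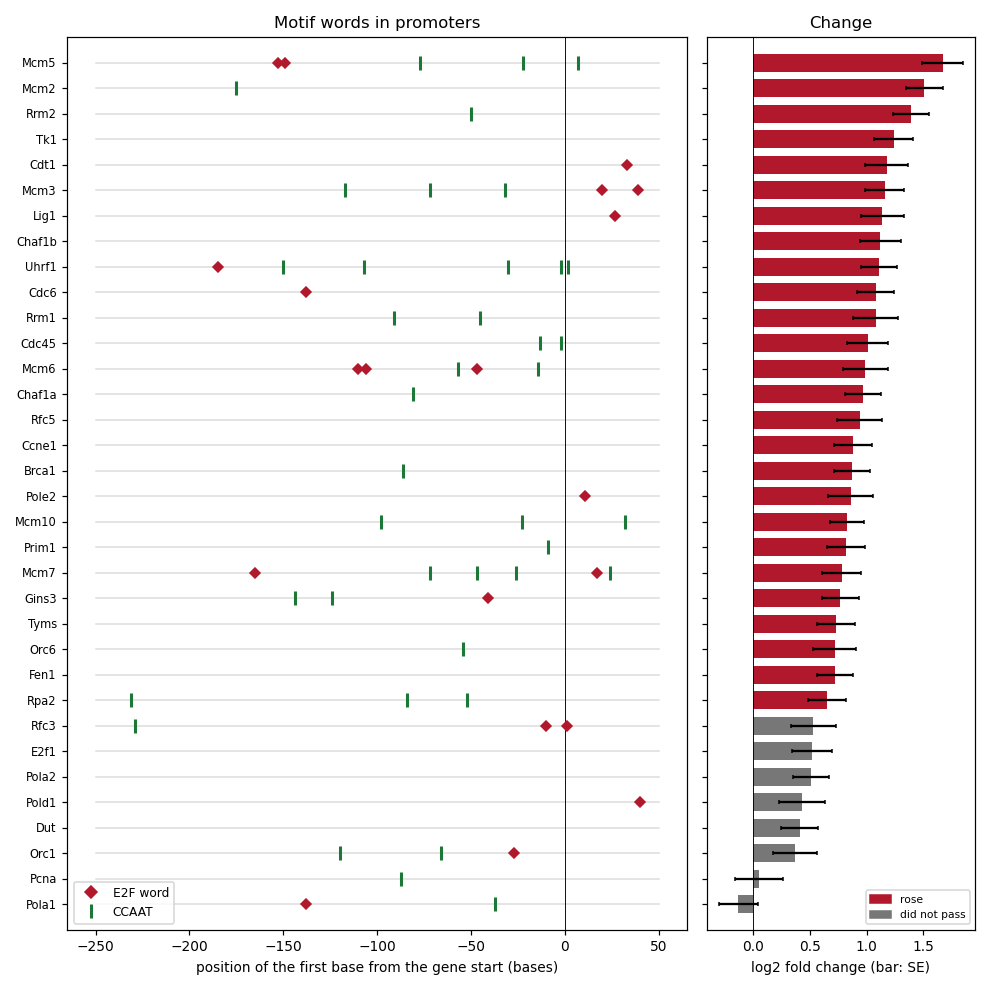
Left, position of E2F words (diamonds) and CCAAT (green bars) from the start of each promoter window in bases (for Mcm5 a start downstream of the outermost one used for the printed bases), over all promoter windows of each of the 34 measured genes in the promoter table. Right, the log2 fold change with its SE, in falling order: E2F words occur among genes with large changes, such as Mcm5, and at the bottom of the order, in Pola1.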

How the data were processed

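Total RNA of 4 synovium pools was measured on Affymetrix MoGene arrays, from 500 ng of RNA per array, per the labels' protocols. The deposited values of the authors are log2 signals, 1 per probe set and array, made with RMA (background correction, normalization between arrays and summary of probes). RMA, Affymetrix Power Tools and the Affymetrix Expression Console are listed in the submitters' processing notes, with versions not given in the sources used here. RMA normalizes between arrays, so changes are relative to the other genes, and the medians of the deposited arrays over all probe sets still ran from 6.96 to 7.15. Values of 2.89 to 14.27 fit a log2 scale. No detection calls were used.

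Of 41345 probe sets, 23521 had 1 gene symbol, 1814 several and 16010 none, and 23328 symbols matched RefSeq by gene number. For each gene the probe set of highest mean signal was used. Arthritic and nonarthritic pools were compared in R 4.3.3 by the moderated 2-sided test of limma 3.58.1 (functions lmFit, eBayes), without a trend in the prior, with Benjamini-Hochberg adjustment over 22180 genes and a threshold of 0.05, and the script was tested on simulated data. There were 2 residual degrees of freedom and 5.98 from the prior. Genes rose or fell when they passed, ± marks the SE that limma gives a fold change, and intervals use its moderated spread. The members and lists were chosen with earlier results of these data known. Named were all measured members and, in each other list, the called genes with the largest change, at most 4 per direction, up to 3 that did not pass and up to 3 markers. Others named, whether marked so or not, lie outside this rule and were chosen with their values known. Alternatives were probe set averages, a dim-gene filter, median centring, quantile normalization, a variance trend, a fit over every probe set, a pool number block and leaving out each pool.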

Additional observations from a re-analysis of the deposited data

How the results depend on the processing

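The 40 replication genes kept a positive median under all 11 alternatives (0.77 to 0.93), and 0 of them fell under any (limma, 0 lower at an unadjusted p under 0.05 each time). The number rising was 27 to 29 with probe set averages, the dim-gene filter (37 of the 40 tested), median centring, quantile normalization again and a variance trend. Median centring moved the median of all genes from 0.005 to 0.1 and the share of rises among all calls from 56.8% to 67.1%. The fit over every probe set, with 3.22 prior degrees of freedom, gave 9 rising replication genes, 10 rising and 1 falling among the other replication genes, and 549 rising and 537 falling among all genes, against 1933 and 1469. With the pool number as a replicate block, 17 of the 40 and 1216 of all genes rose. The pools share only a number, and their differences correlated across 22180 genes at r = 0.176. With and without the block the median of the 40 fold changes was 0.82, and the prior degrees of freedom were 3.01 and 5.98. Leaving out 1 pool gave 0 to 10 rising replication genes, 0 to 10 rising and 0 falling among the other replication genes, and 47 to 637 rising and 105 to 584 falling among all genes, with 1 residual degree of freedom each time and the lone pool assumed to vary like the others.

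Changes of sign were seen for values near 0, none of which passed. After quantile normalization again, Gins4 was at -0.03, Pcna at -0.05, Pold2 at -0.01, Pole3 at -0.03 and Rpa3 at -0.02. With arrays centred, Orc3 was at 0.04 and Rfc1 at 0.03, and with probe sets averaged Rbbp4 was at -0.26. Without each pool in turn, Gins4 lay between -0.03 and 0.1, Pola1 between -0.26 and 0.01, Pcna between -0.24 and 0.33, Rbbp7 between -0.01 and 0.24, Pold2 between -0.03 and 0.11, Pole3 between -0.03 and 0.1, Pole4 between -0.04 and 0.08, Rfc1 between -0.29 and 0.16, and Rpa3 between -0.04 and 0.13. The cause of these changes was not tested.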
